A study of Mus musculus with 13 samples.

Results

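The 34 proliferation genes described here encode proteins of DNA replication, S phase and mitosis. They were taken by symbol from the expression tables, where all 34 were found among 23845 genes, and all 34 had enough reads to be tested. For this account they were divided into 15 S-phase members (Mcm2 to Mcm7, Pcna, Rrm2, E2f1, Cdt1, Ccne1, Ccne2, Mybl2, Cdc6 and Gins2) and 19 mitotic members (Mki67, Top2a, Ccnb1, Ccnb2, Ccna2, Cdk1, Plk1, Aurka, Aurkb, Bub1, Bub1b, Cdc20, Cenpe, Kif11, Kif20a, Tpx2, Birc5, Foxm1 and Ube2c). RNA was sequenced from 13 cell lines derived from mammary tumours of FVBN/J mice, in a study of the stress kinase JNK in HER2-driven breast cancer. Of these lines 6 were wild type (WT) for JNK and 7 were labelled JNK knockout. Both groups grew in the same medium, which held EGF at 20 ng/ml and insulin at 10 µg/ml besides 10% serum. Each line gave 1 sample. The labels name neither the JNK genes removed, nor the driver of the deletion, nor the HER2 transgene, nor the age of the animals. Titles of WT replicates 4 and 5 share a number, and whether these lines came from 1 animal is not stated. Replicate numbers here only name the lines.

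Cells commit to division when cyclin-dependent kinases inactivate the RB family and free the E2F factors, which switch on the genes of S phase. The MCM2-7 complex, loaded at replication origins, is the helicase that unwinds DNA. Later in the cycle the B-MYB and FOXM1 factors, acting with the MuvB complex, switch on the genes of mitosis, among them CDK1, its cyclins and the kinases of the spindle. Transcripts of both waves are abundant in a culture with many cycling cells and scarce in a resting one. In bulk RNA, fewer cycling cells and less transcript per cycling cell cannot be told apart.

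Expected counts summed to between 38298602 and 46689809 reads per line, and no member had fewer than 142 reads in any line. The JNK genes followed the labels. Mapk8 (JNK1) was 24.0 to 37.3 CPM (read counts scaled to the TMM-adjusted library size) in WT and 4.33 to 8.33 CPM in knockout lines, and Mapk9 (JNK2) 55.0 to 73.1 against 8.90 to 24.7 CPM. The 6 epithelial markers summed to 5370 to 6320 CPM in WT and 2960 to 21800 CPM in knockout lines, with the top value in replicate 2, where members were scarce. Krt5 was at most 1.01 CPM in WT and 84.2 to 12400 CPM in knockout lines, and Krt14 was 47.8 to 232 against 313 to 8340 CPM. The other 4 markers were lower on average in knockout lines: Epcam at 415 against 855 CPM in WT, Krt8 at 1050 against 2060, Krt18 at 857 against 2060 and Cdh1 at 451 against 738. The part of these marker differences in the results below was not tested. The 7 immune markers summed to between 2.49 and 19 CPM, mostly Cd68 at 2.16 to 18.7 CPM and Csf1r at up to 6.32 CPM, while Ptprc was at most 0.178 CPM, and the 5 endothelial markers to at most 1.15 CPM. The 8 fibroblast markers summed to 480 CPM in WT replicate 3, led by collagen I genes, and to between 3.05 and 58.8 CPM in the other lines. Between genotypes, 1111 of 13058 genes were called (8.51%), 566 with a higher level in knockout lines (4.33%) and 545 with a lower one (4.17%), at an adjusted p under 0.05 with edgeR's quasi-likelihood test.

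The proliferation genes moved together from line to line, and the lines of each genotype differed widely. In knockout replicate 7 all 34 members lay below their median over the 13 lines, and so did all 34 in WT replicate 5. In knockout replicate 2 the count was 32 of 34. At the other end, all 34 members lay above their median in WT replicate 1, 32 in WT replicate 2, 28 in WT replicate 6 and 27 in knockout replicate 5. Knockout replicate 7 held the lowest CPM of the 13 lines for 29 of the 34 members (85.3%), whereas it was the lowest line for 6.81% of all genes tested. The highest CPM fell in WT replicate 1 for 12 members, in WT replicate 2 for 9 and in knockout replicate 5 for 9. The peaks in knockout replicate 5 were not seen in TPM (a level scaled for transcript length and library size). There Pcna was 420 in that line and 562 in WT replicate 6, and Mcm7 162 against 260 in WT replicate 2. TPM, which was not TMM-adjusted, was low for its CPM in knockout replicate 5 for genes without a peak there too. Top2a was 273 CPM and 59.2 TPM in that line, against 271 CPM and 88.4 TPM in knockout replicate 6. Mapk8 was 4.33 CPM and 0.85 TPM, against 4.89 CPM and 1.35 TPM in knockout replicate 1. This line had the lowest TMM factor, 0.896. Which scale suits it better was not tested.

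**Figure D1:**
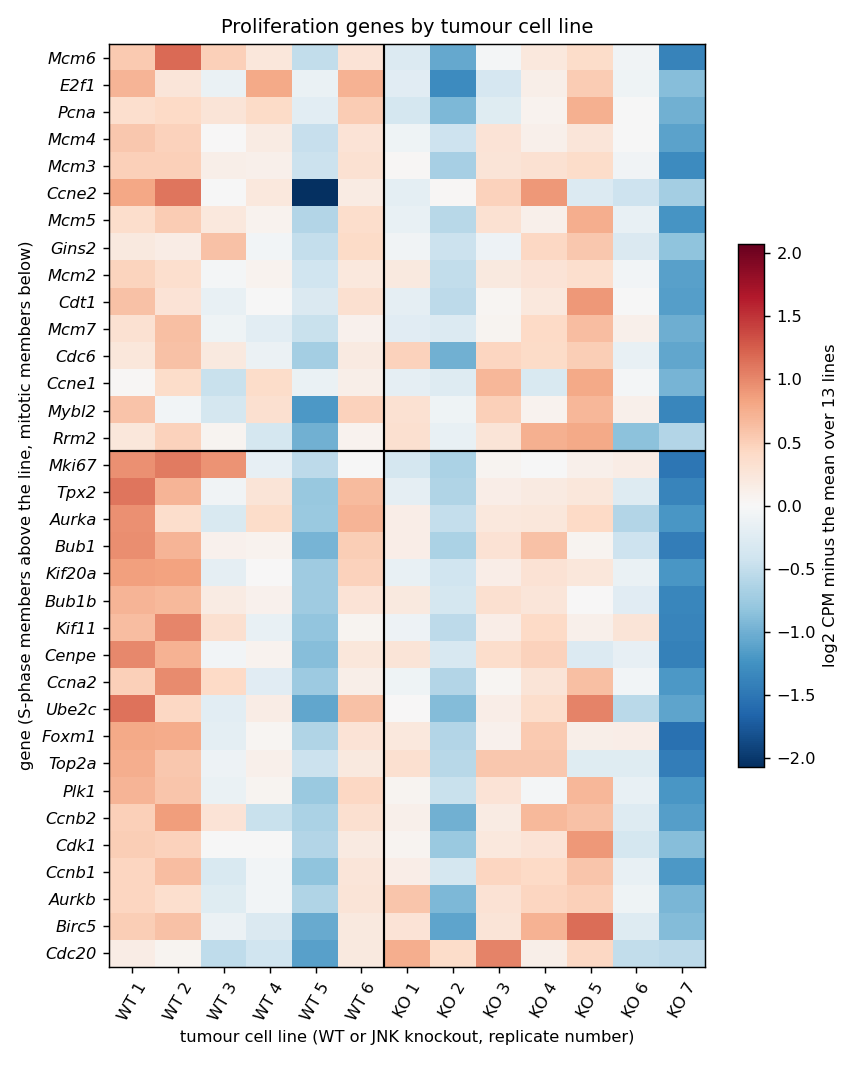
Level of each of the 34 genes (rows) in each of the 13 tumour cell lines (columns), as log2 CPM minus the gene's mean over all lines; red is above and blue below that mean. The columns of WT 5, KO 2 and KO 7 are blue in nearly every row, and those of WT 1 and WT 2 red in nearly every row, and both genotypes hold red and blue columns.

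The size of these swings was read from 2 scores per line, the mean over the S-phase or over the mitotic members of log2 CPM less the gene's own mean over the lines. The S-phase score ran from -0.61 (replicate 5) to 0.49 (replicate 2) in WT lines and from -1.05 (replicate 7) to 0.53 (replicate 5) in knockout lines. The mitotic score ran from -0.78 (replicate 5) to 0.71 (replicate 1) in WT lines and from -1.21 (replicate 7) to 0.38 (replicate 5) in knockout lines. Between the lowest and the highest of the 13 lines this was a 3.0-fold span for S-phase and a 3.8-fold span for mitotic members. The group means lay far closer together than the lines did. For the S-phase score they were 0.13 ± 0.40 in WT (SD, n = 6) and -0.11 ± 0.54 in knockout lines (SD, n = 7), and for the mitotic score 0.14 ± 0.55 and -0.12 ± 0.59. Both differences, -0.24 and -0.26, were smaller than 1 SD among lines of either group. On log2(TPM + 1) they were -0.46 and -0.48, and on log2(TPM + 0.1) -0.47 and -0.49. The median log2 fold change of all tested genes was itself -0.19 on the first of these scales and -0.23 on the second. The SD of the scores was not taken on them. Library totals are set beside these scores, since the 3 lines with the most reads had scores below 0: 46689809 reads in WT replicate 5 went with a mean score over all members of -0.71, 45586413 in knockout replicate 6 with -0.18, and 45462538 in knockout replicate 7 with -1.14, while knockout replicate 2, at -0.57, had 40601135. The next deepest lines, WT replicates 4 and 2, had 43839413 and 43046326 reads with scores of 0.04 and 0.58. The part of depth in the scores was not tested.

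S-phase and mitotic members stayed close to one another within a line. The S-phase score minus the mitotic score was between -0.28 and 0.17 in WT lines and between -0.17 and 0.16 in knockout lines. Its group means were -0.01 ± 0.18 (SD, n = 6) and 0.01 ± 0.13 (SD, n = 7), so no shift of the balance between the phases went with genotype beyond the spread among lines. The mitotic score lay farther from 0 than the S-phase score in 10 of the 13 lines, all but WT replicates 3 and 4 and knockout replicate 5. In WT replicate 1 the mitotic score was 0.71 against 0.43 for S phase, and in knockout replicate 7 -1.21 against -1.05. Knockout replicate 5 had the highest S-phase score of all lines in log2 CPM, 0.53, but a mitotic score of 0.38, below those of WT replicates 1 and 2. S-phase members that peaked in this line by CPM did not do so in TPM, where its values were low for their CPM in other genes too. For example, Mcm5 was 60.5 TPM there and 83.9 TPM in WT replicate 2.

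**Figure D2:**
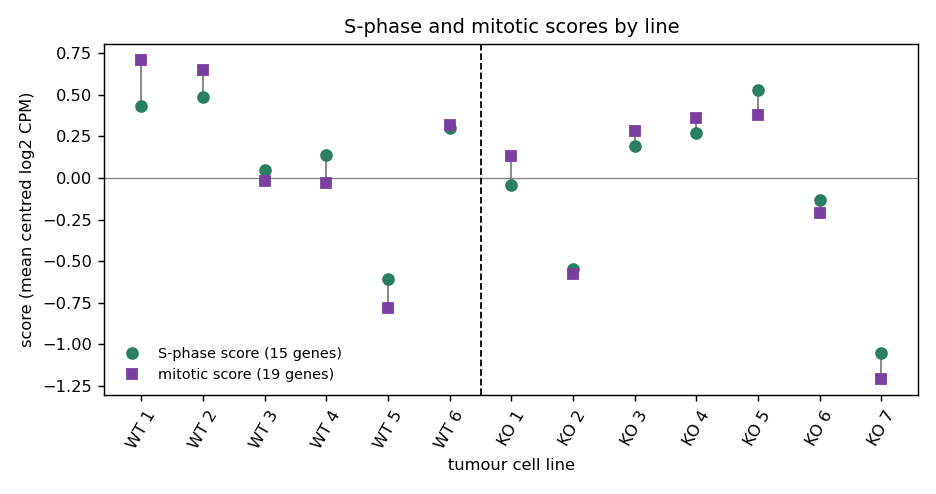
S-phase score (circles, 15 genes) and mitotic score (squares, 19 genes) of each line, in mean centred log2 CPM, with a grey bar joining both scores of a line. Scores of a line differ by at most 0.28, while lines of 1 genotype span more than 1 log2 unit.

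Members also varied more among lines than most genes of like abundance. The ratio of the highest to the lowest of the 13 lines had a median of 4.15 over the 34 members, from 2.73 for Gins2 to 9.26 for Ccne2. Other tested genes whose median TPM lay within the members' range of 7.06 to 402 numbered 8643. Their median ratio was 2.62, with the middle 50% of genes between 2.01 and 3.97. Across members, levels per length were highest for Pcna, with a median of 402 TPM over the lines, Ube2c with 326 TPM and Birc5 with 173 TPM. They were lowest for Ccne2 (7.06 TPM), Cdc6 (10.3 TPM) and Cenpe (17.0 TPM).

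Against this spread, no proliferation gene passed the test between genotypes. With edgeR's quasi-likelihood test 0 of 34 were higher and 0 lower at an adjusted p under 0.05, where 8.51% of all tested genes were called (4.33% higher and 4.17% lower). At an unadjusted p under 0.05 there were 3 (Mki67, E2f1 and Mcm6), or 8.82% of the members, where 26.3% of all tested genes passed. DESeq2 and limma-voom each called 0 as well, with 3 at an unadjusted p under 0.05. WT and knockout lines overlapped for all 34 members in CPM, whereas they did not overlap for 4.05% of all tested genes. The log2 fold change (knockout minus WT) was below 0 for 29 members and above 0 for 5, with a median of -0.25, beside 0.01 over all tested genes. That median rested in part on single lines, being -0.12 without knockout replicate 7, -0.15 and -0.16 without WT replicates 1 and 2, and -0.38 without WT replicate 5. S-phase members had a median of -0.22 and mitotic members of -0.30. On the TPM table limma called 2 members lower (E2f1, adjusted p = 0.0497, and Pcna, adjusted p = 0.0441, on log2(TPM + 1)), where 9.83% of tested genes were called. The same 2 members were called on log2(TPM + 0.1), where 9.98% of tested genes were. On both scales 33 members were below 0 and 7 of 34 had an unadjusted p under 0.05. The share of all tested genes under that unadjusted p was not taken on these scales. The median of the members was -0.52 on the first scale, where that of all tested genes was itself -0.19, and -0.53 on the second, where it was -0.23.

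**Figure D3:**
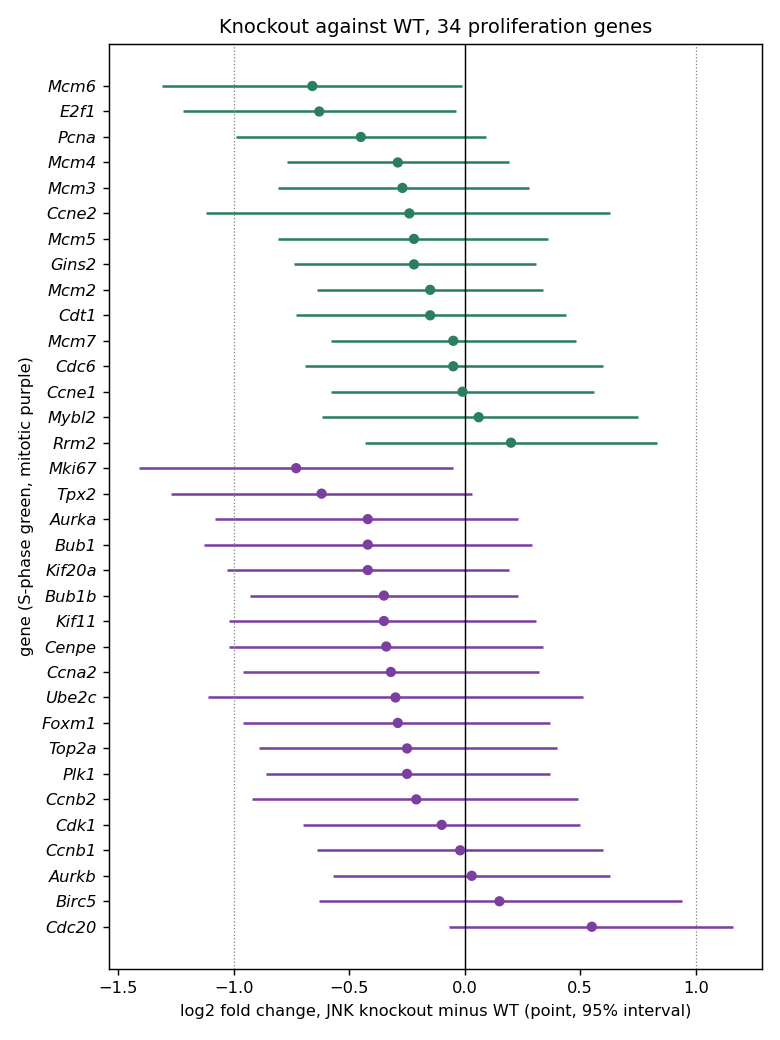
Log2 fold change of each member between knockout and WT lines (point) with its 95% interval (line) from the edgeR fit; S-phase members are green and mitotic members purple, and dotted lines mark a 2-fold difference. Most points lie left of 0, and all intervals but those of Mki67, E2f1 and Mcm6 span it.

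The intervals show what size of difference these 13 lines could hide. For 22 of the 34 members the 95% interval lay wholly within a 2-fold difference in either direction. For 11 it reached a 2-fold lower level in knockout lines, with the widest reach for Mki67 (lower bound -1.41, a 2.66-fold lower level). It reached a 2-fold higher level for 1 member, Cdc20 (upper bound 1.16). A moderately lower level of many members in knockout lines was thus not detectable at this number of lines, and equal levels are not shown.

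Among the S-phase members, the helicase subunits Mcm2 to Mcm7 had log2 fold changes from -0.66 to -0.05 (adjusted p from 0.19 to 0.92), and each of the 6 was lowest in knockout replicate 7. Mcm6 (chromosome 1, 128331575 to 128359705) had the largest of these differences. It ran from 107 over a median of 201 to 348 CPM in WT lines, and from 58.9 over 146 to 200 CPM in knockout lines. The top value, in WT replicate 2, stood well above the second highest, 224 CPM in WT replicate 1, and 5 of the 6 WT lines lay within 107 to 224 CPM. The log2 fold change was -0.66 (SE 0.30, edgeR adjusted p = 0.19) and -0.46 without WT replicate 2. Mcm2, by contrast, ran from 88.8 over 132 to 163 CPM in WT and from 54.0 over 136 to 152 CPM in knockout lines. Its medians were nearly alike, and its log2 fold change was -0.15 (95% interval -0.64 to 0.34). Mcm7 was closer still, at -0.05 (95% interval -0.58 to 0.48).

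The licensing factors Cdt1 and Cdc6, which load MCM2-7 onto origins, and Gins2, a subunit of the GINS complex that activates the helicase, had log2 fold changes of -0.15, -0.05 and -0.22 (edgeR adjusted p from 0.61 to 0.94). All 3 were lowest in knockout replicate 7. Cdt1 reached 85.5 CPM in knockout replicate 5, above its highest WT value of 70.0 CPM. In TPM it was 47 in that line, below the 65.1 of WT replicate 1.

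E2f1 (chromosome 2, 154559400 to 154569892), the E2F factor that drives entry into S phase, ran from 35.6 over a median of 55.1 to 67.6 CPM in WT lines and from 15.7 over 33.0 to 56.5 CPM in knockout lines. WT replicates 1, 4 and 6 lay above every knockout line, and WT replicates 2, 3 and 5 lay among the knockout lines. Its log2 fold change was -0.63 (SE 0.28, edgeR adjusted p = 0.17), and -0.87 on log2(TPM + 1), where limma called it (adjusted p = 0.0497), or -0.68 relative to the median of all genes, which was not tested. Ccne1 and Ccne2 encode E-type cyclins, which with CDK2 start S phase. Ccne1 ran from 20.0 over 28.8 to 35.8 CPM in WT and from 14.0 over 24.0 to 47.6 CPM in knockout lines, with a log2 fold change of -0.01 (95% interval -0.58 to 0.56). Knockout replicates 3 and 5, at 44.1 and 47.6 CPM, lay above all WT lines, and knockout replicate 7 below them. In TPM replicate 3, at 41, stayed above the WT lines, which reached 36.8, while replicate 5, at 29.7, lay among them. Ccne2 was the most variable member, at 2.89 CPM in WT replicate 5 and 26.8 CPM in WT replicate 2, and its knockout lines, from 7.57 to 23.1 CPM, fell within that range. Mybl2, the B-MYB factor, had a log2 fold change of 0.06.

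Pcna, the sliding clamp of DNA polymerases, ran from 206 over a median of 312 to 349 CPM in WT lines and from 120 over 202 to 403 CPM in knockout lines. The WT lines were fairly even, and 4 knockout lines (replicates 1, 2, 3 and 7) lay below all of them, while knockout replicate 5 was above all. In TPM knockout replicate 5, at 420, lay among the WT lines, at 357 to 562. The log2 fold change was -0.45 (SE 0.25, edgeR adjusted p = 0.28) and became -0.67 without knockout replicate 5 and -0.34 without knockout replicate 7. Rrm2, the small subunit of ribonucleotide reductase, which supplies deoxynucleotides, was 1 of 2 S-phase members above 0, with a log2 fold change of 0.20 (95% interval -0.43 to 0.83).

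Mki67 had the largest difference of all members. It encodes Ki-67, a protein of the mitotic chromosome surface used as a marker of cycling cells (chromosome 7, 135689784 to 135716450). It ran from 104 over a median of 220 to 323 CPM in WT lines and from 53.5 over 150 to 169 CPM in knockout lines. The WT lines fell apart into replicates 1, 2 and 3, at 289 to 323 CPM, and replicates 4, 5 and 6, at 104 to 151 CPM, and the latter lay among the knockout lines. The log2 fold change was -0.73 (SE 0.32, edgeR adjusted p = 0.16), a 1.66-fold lower level in knockout lines that did not pass the test. WT replicates 1, 2 and 3 also lay above replicates 4, 5 and 6 for Ccna2, Kif11, Mcm6 and Cdc6, with smaller gaps. Between WT replicates 3 and 6 these gaps were 199 against 162 CPM for Ccna2 and 102 against 84.3 CPM for Kif11. For Mcm6 they were 216 against 187 CPM, and for Cdc6, with almost no gap, 27.6 against 27.2 CPM. The mitotic score of WT replicate 3 was -0.02. Top2a, the topoisomerase that untangles replicated DNA, had a smaller log2 fold change, -0.25 (95% interval -0.89 to 0.40), and did not pass the test either. It ran from 237 over 359 to 548 CPM in WT and from 120 over 273 to 477 CPM in knockout lines.

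CDK1, the kinase that drives cells into mitosis, acts with cyclins A2, B1 and B2. Its gene and those of the cyclins differed little between genotypes, with log2 fold changes of -0.10 for Cdk1, -0.32 for Ccna2, -0.02 for Ccnb1 and -0.21 for Ccnb2 (edgeR adjusted p from 0.53 to 0.98). Ccnb1 ran from 79.7 over 154 to 223 CPM in WT and from 62.3 over 158 to 214 CPM in knockout lines, so both groups covered almost the same range. Foxm1, which encodes the transcription factor of the mitotic genes, ran from 51.8 over 89.8 to 139 CPM in WT and from 27.3 over 86.6 to 116 CPM in knockout lines (log2 fold change -0.29, 95% interval -0.96 to 0.37). All 5 genes were lowest in knockout replicate 7.

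None of the spindle genes passed the test. Tpx2, the activator of Aurora A on spindle microtubules, ran from 82.5 over 199 to 310 CPM in WT and from 55.6 over 126 to 169 CPM in knockout lines. The log2 fold change was -0.62 (SE 0.30, edgeR adjusted p = 0.21). Its highest knockout line lay below 4 of the 6 WT lines. Kif20a, a kinesin of cytokinesis, ran from 81.5 over 164 to 246 CPM in WT and from 59.0 over 125 to 167 CPM in knockout lines (log2 fold change -0.42, adjusted p = 0.37). Aurka, the Aurora A kinase itself, ran from 35.2 over 78.3 to 116 CPM in WT and from 26.0 over 66.4 to 80.3 CPM in knockout lines (log2 fold change -0.42, adjusted p = 0.40). In both genes the highest values were in WT replicate 1 and the lowest in knockout replicate 7. The motor genes Kif11 and Cenpe had log2 fold changes of -0.35 and -0.34. The polo kinase Plk1 (-0.25) and the spindle checkpoint genes Bub1 (-0.42) and Bub1b (-0.35) gave values of the same sign, while Aurkb (0.03) and Birc5 (0.15), which encode partners in the chromosomal passenger complex, lay near 0 or above.

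Cdc20 had the largest log2 fold change of the 5 members above 0. It encodes the activator of the anaphase-promoting complex (APC/C), the ubiquitin ligase that ends mitosis (chromosome 4, 118432901 to 118437343). It ran from 36.3 over a median of 71.1 to 91.2 CPM in WT lines and from 54.4 over 103 to 163 CPM in knockout lines. Knockout replicates 1, 2, 3 and 5, at 103 to 163 CPM, lay above every WT line, and replicates 6 and 7 lay among the lower WT lines. In TPM only knockout replicates 1 and 3, at 132 and 169, lay above every WT line, which reached 103. Replicates 2 and 5 were at 99.2 and 74 TPM. The log2 fold change was 0.55 (SE 0.29, edgeR adjusted p = 0.24), a 1.46-fold higher level that did not pass the test, and it stayed between 0.39 and 0.66 when any 1 line was left out. With limma on log2(TPM + 1) it was 0.29 (adjusted p = 0.525), or 0.48 relative to the median of all genes, which was not tested. Ube2c, the ubiquitin-conjugating enzyme that works with APC/C, had a log2 fold change of -0.30.

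Since the members moved together from line to line, each was also described relative to the other members of its own list in the same line. Cdc20 minus the mean of the other 18 mitotic members, in centred log2 CPM, was between -0.63 and -0.12 in WT lines and between -0.32 and 1.01 in knockout lines, with 5 of 7 knockout lines above every WT line. Even knockout replicate 2, where most members were scarce, held 103 CPM of Cdc20. For Ccnb1 the same quantity was between -0.32 and -0.01 in WT and between 0.01 and 0.23 in knockout lines, so that all 7 knockout lines lay above all WT lines by a small margin. Ccnb1 was the only member whose groups did not overlap in this quantity. Of all tested genes 1.2% did not overlap between groups in log2 CPM less the mitotic score, and 4.05% in CPM alone. The first share is not a like comparison, since the score was taken from every gene, whether or not that gene followed it. Relative to their own lists, Rrm2 and Birc5 had 6 and 5 knockout lines above every WT line, and each had 1 below every WT line. Mcm6 minus the other S-phase members went the other way, from -0.02 to 0.74 in WT and from -0.55 to 0.07 in knockout lines, as did Tpx2 within its list, from -0.06 to 0.42 against -0.32 to -0.04. These genes were singled out after their values were seen. With the mean of the 34 members, which includes the gene tested, added as a covariate, a fit also chosen after the data were seen, edgeR called 0 members (7.51% of all tested genes), with 8 of 34 at an unadjusted p under 0.05. The share of all tested genes under that unadjusted p was not taken in this fit, and was 26.3% without the covariate. The smallest adjusted p-values were those of Cdc20 (log2 fold change 0.78, SE 0.22, adjusted p = 0.053) and Mcm6 (-0.42, SE 0.14, adjusted p = 0.088).

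**Figure D4:**
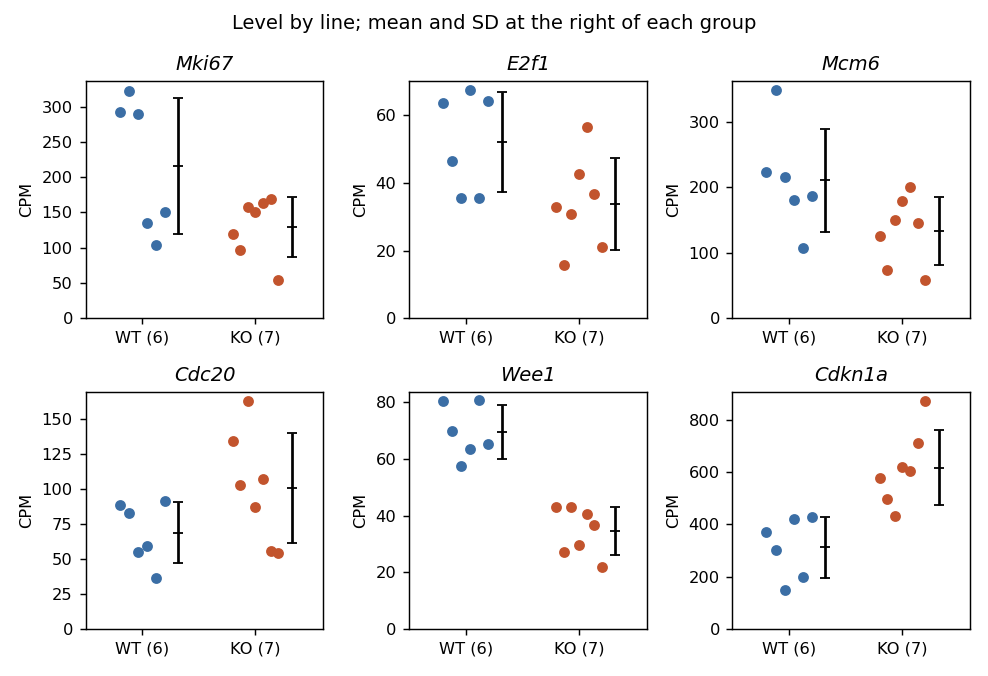
CPM of 4 members and of Wee1 and Cdkn1a in the 6 WT (blue) and 7 knockout (orange) lines, 1 point per line, with the group mean and SD in black; each axis starts at 0. Points of both groups overlap for Mki67, E2f1, Mcm6 and Cdc20, and do not overlap for Wee1 or Cdkn1a.

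Both waves of transcription are known to be read from short promoter elements, so member promoters were searched for them. Mitotic genes often carry a CHR element, bound through the MuvB complex, near CCAAT boxes bound by NF-Y, and S-phase genes E2F sites. The window ran from 250 bases before to 50 after the transcription start in RefSeq (GRCm38.p6), and both strands were searched. CHR was TTTGAA or TTCGAA, the CCAAT box CCAAT, and E2F any of TTTCGCGC, TTTGGCGC, TTCCCGCC and TTTCCCGC, of which matches can overlap. RefSeq promoters were matched for 26 members, 14 mitotic and 12 S-phase, and Mcm7 had 2 starts, which gave 13 S-phase promoters. The 6 promoters below were chosen because their genes carry the results above: Mki67, Cdc20 and Mcm6 with large differences, Ccnb1 with its shift relative to the other mitotic members, and Cdk1 and Mcm3 as examples with several matches of a mitotic and an S-phase gene. Each is written 5′ to 3′ on the gene's strand, which is the minus strand in all 6, with matches in capitals.
Mki67, chr7:135716330-135716629: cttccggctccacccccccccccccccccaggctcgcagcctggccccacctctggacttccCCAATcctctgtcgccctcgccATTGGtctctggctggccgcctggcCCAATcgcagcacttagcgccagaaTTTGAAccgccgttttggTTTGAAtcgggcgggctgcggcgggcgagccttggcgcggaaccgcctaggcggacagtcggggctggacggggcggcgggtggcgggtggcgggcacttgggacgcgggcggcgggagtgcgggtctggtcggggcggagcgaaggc
Cdk1, chr10:69352863-69353162: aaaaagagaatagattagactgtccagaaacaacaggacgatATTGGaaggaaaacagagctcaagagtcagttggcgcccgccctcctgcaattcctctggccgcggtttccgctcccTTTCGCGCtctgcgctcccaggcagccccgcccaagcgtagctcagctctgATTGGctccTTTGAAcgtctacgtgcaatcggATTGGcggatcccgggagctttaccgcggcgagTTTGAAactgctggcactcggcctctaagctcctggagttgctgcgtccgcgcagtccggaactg
Cdc20, chr4:118437294-118437593: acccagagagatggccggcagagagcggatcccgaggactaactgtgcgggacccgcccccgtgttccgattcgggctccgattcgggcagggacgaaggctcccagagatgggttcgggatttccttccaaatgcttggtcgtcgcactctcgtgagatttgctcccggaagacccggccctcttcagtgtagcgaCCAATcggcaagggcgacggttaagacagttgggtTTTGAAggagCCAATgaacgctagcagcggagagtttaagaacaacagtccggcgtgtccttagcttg
Ccnb1, chr13:100786437-100786736: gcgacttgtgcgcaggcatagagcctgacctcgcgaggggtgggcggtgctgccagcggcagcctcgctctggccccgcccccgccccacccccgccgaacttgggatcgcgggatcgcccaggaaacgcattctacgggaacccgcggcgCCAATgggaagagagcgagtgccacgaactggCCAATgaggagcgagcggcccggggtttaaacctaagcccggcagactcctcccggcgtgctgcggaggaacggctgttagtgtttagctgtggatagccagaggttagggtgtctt
Mcm6, chr1:128359656-128359955: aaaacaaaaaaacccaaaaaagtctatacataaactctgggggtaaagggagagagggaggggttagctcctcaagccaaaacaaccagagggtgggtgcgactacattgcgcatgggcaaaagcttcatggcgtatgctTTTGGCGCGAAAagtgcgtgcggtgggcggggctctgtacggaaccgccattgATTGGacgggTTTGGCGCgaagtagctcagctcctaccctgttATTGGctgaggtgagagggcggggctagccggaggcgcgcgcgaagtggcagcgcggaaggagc
Mcm3, chr1:20820263-20820562: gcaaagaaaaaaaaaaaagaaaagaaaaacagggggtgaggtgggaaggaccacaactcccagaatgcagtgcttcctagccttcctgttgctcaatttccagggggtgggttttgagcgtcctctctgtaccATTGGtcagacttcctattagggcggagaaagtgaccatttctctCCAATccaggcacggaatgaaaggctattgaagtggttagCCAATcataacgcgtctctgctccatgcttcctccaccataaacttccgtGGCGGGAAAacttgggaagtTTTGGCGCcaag

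The lists differed in the elements they held. A CHR match was found in 11 of 14 mitotic promoters (78.6%) and in 2 of 13 S-phase promoters (15.4%), beside 13.6% of 12599 promoters of tested genes and 19.2% of all 32851 promoters. Both a CHR and a CCAAT match were present in 78.6% of mitotic promoters and in 5.63% of promoters of tested genes. An E2F match was found in 6 of 13 S-phase promoters (46.2%) and in 1 of 14 mitotic ones (7.14%, Cdk1), beside 6.23% of promoters of tested genes. In the Mki67 promoter the 2 CHR matches began 116 and 98 bases before the start, downstream of 3 CCAAT boxes. Cdk1 held CHR matches 71 and 15 bases before the start and an E2F match 131 bases before it. Cdc20 held 1 CHR match, 18 bases before the start, between 2 CCAAT boxes. Ccnb1 held 2 CCAAT boxes and none of the CHR letters searched. In Mcm6 the E2F matches began 110, 106 and 47 bases before the start, with the first 2 overlapping, and in Mcm3 all 3 lay just after the start. A match describes letters in this window, not binding.

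**Figure D5:**
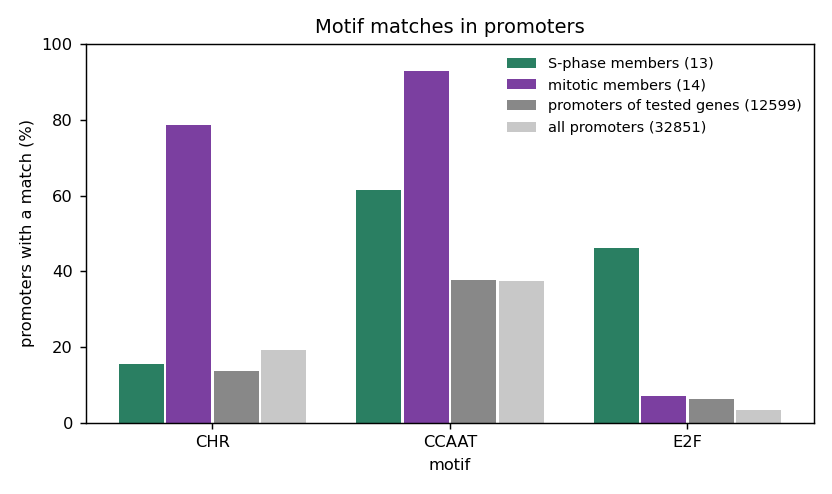
Share of promoters (percent) with at least 1 match to each element, for S-phase members, mitotic members, promoters of tested genes and all RefSeq promoters, with the number of promoters in brackets. CHR matches are at 78.6% in mitotic and 15.4% in S-phase promoters, and E2F matches at 7.14% and 46.2%.

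Members with and without a motif overlapped in their genotype difference. The 13 members with a CHR match had log2 fold changes from -0.73 (Mki67) to 0.55 (Cdc20), with a median of -0.25, against a range of -0.66 to 0.20 and a median of -0.15 for the 13 with none. Their ratio of highest to lowest line had a median of 4.46, against 3.97. For the 7 members with an E2F match the median ratio was 3.50, against 4.29 for the other 19. No test was made of these medians. They largely repeat the division into lists, since 11 of the 13 members with a CHR match were mitotic and 10 of the 13 without were S-phase members. Of the 7 with an E2F match 6 were S-phase members. The median ratio was 4.49 over all mitotic and 3.44 over all S-phase members.

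Some other lists of cell cycle genes followed the members from line to line, and others did so less or not at all. In the list of further replication genes (40 tested) knockout replicate 7 was the lowest line for 27, and in that of kinetochore, spindle and cytokinesis genes (43 tested) for 31. The mean centred log2 CPM of the kinetochore list was -1.08 in that line, -0.73 in WT replicate 5 and 0.62 and 0.63 in WT replicates 1 and 2. In knockout replicate 7 the mean was -0.98 for nucleotide supply and chromatin assembly and -0.93 for mitotic entry. It was only -0.34 for the RB, E2F and MuvB group and -0.23 for APC/C subunits. The mean of the 9 G1 cyclins and CDKs was 0.35 in knockout replicate 7 and -0.62 and -0.65 in WT replicates 1 and 2. Ccnd2 weighed heavily in it, at 721 CPM in knockout replicate 7 and 0.803 and 1.03 CPM in WT replicates 1 and 2. Cdk7, by contrast, stayed between 53.3 and 72.1 CPM in all lines. The mean without Ccnd2 was not taken, so the list as a whole is not shown to have gone the other way. CDK inhibitors were at 0.33 in knockout replicate 7 and -2.5 in WT replicate 2, while the other WT lines were at -0.07 to 0.5. In WT replicate 2 Cdkn2a was almost absent, at 0.0468 CPM, but Cdkn1a was 303 CPM and Cdkn1b 105 CPM. The low mean of that line thus does not describe every inhibitor. Between genotypes, 0 of the 40 replication genes, 0 of the 43 kinetochore genes, 0 of 13 genes of nucleotide supply and chromatin assembly, 0 of 18 of the RB, E2F and MuvB group and 0 of 9 G1 cyclins and CDKs passed edgeR's test, where 8.51% of all tested genes did. At an unadjusted p under 0.05 these lists had 1, 1, 3, 2 and 1 members, where 26.3% of all tested genes passed, led by Pold3, Prc1, Uhrf1, Rbl1 and Ccnd2. Their median log2 fold changes were -0.08, -0.24, -0.16, 0.02 and 0.06.

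Among regulators of the cycle there were 3 calls, in lists of 12, 8 and 14 genes, beside 8.51% of all tested genes called. Wee1, the kinase that holds CDK1 inactive before mitosis (chromosome 7, 110122059 to 110143299), fell, as the 1 call among 12 regulators of mitotic entry. It ran from 57.4 to 80.8 CPM in WT lines and from 21.7 to 43.0 CPM in knockout lines, so the groups did not overlap, as for 4.05% of tested genes. The level was 2.01-fold lower (log2 fold change -1.01, SE 0.17, edgeR adjusted p = 0.0053), and each of the 13 fits with a line removed called it. WT replicate 5, with scarce members, held the highest Wee1 level, 80.8 CPM, and knockout replicate 7 the lowest, 21.7 CPM. Cdkn1a, the CDK inhibitor p21 (chromosome 17, 29090979 to 29100722), rose 1.98-fold, as the 1 call among 8 CDK inhibitors, from 149 to 429 CPM in WT to 434 to 872 CPM in knockout lines. Its log2 fold change was 0.98 (SE 0.25, edgeR adjusted p = 0.031), and the groups did not overlap. Its call was lost without WT replicate 2 (edgeR adjusted p = 0.0538) or 5 (0.0629), without knockout replicate 1 (0.0518) or 7 (0.0612), without WT replicate 5 and knockout replicate 7 together (0.11), with the mean of the members as a covariate (0.0513), and with limma on log2(TPM + 1) (0.0665) or log2(TPM + 0.1) (0.0646). In these fits the log2 fold change of Cdkn1a was 0.79 to 1.01. Cdkn1a was highest, at 872 CPM, in knockout replicate 7, but WT replicate 5, with low scores too, held only 200 CPM. Cdc16, an APC/C subunit and the 1 call among 14, rose 1.38-fold (log2 fold change 0.47, SE 0.13, adjusted p = 0.047), and 12 of the 13 fits with a line removed (all but that without knockout replicate 6) did not call it, with log2 fold changes of 0.38 to 0.54 over the 13 and adjusted p up to 0.0956. Cdc16 was also not called with limma-voom (adjusted p = 0.0638), scaling by library size alone (0.0543), no filter on low counts (0.0618), WT lines 4 and 5 summed (0.0828), WT replicate 5 and knockout replicate 7 left out (0.116), or limma on log2(TPM + 1), where its log2 fold change was 0.21 (adjusted p = 0.204), or log2(TPM + 0.1), where it was 0.22 (adjusted p = 0.21).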

How the data were processed

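The authors deposited expected counts per gene, made with RSEM after trimming with cutadapt, and TPM for the same genes and lines, per the submitters' processing notes, which name the builds mm10 and GRCm38. The sources used here give no aligner and no tool version. RNA came from column-purified total RNA with a DNase step, sequenced as paired ends, per the labels' protocols. Of the deposited expected counts 95.5% were whole numbers, and the rest were rounded.

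Genes were kept with filterByExpr (13058 of 23845), libraries scaled by TMM, and 7 knockout lines compared with 6 WT lines with edgeR's quasi-likelihood F test, group only (edgeR 4.0.16, R 4.3.3), with Benjamini-Hochberg adjustment over all genes tested and a threshold of 0.05. The SE came from the log2 fold change over the root of the F statistic, and 95% intervals from the degrees of freedom of that test. Scores used log2 CPM with a prior count of 2. The code was tested on simulated data. Promoters and gene positions are RefSeq's, on GRCm38.p6. Alternatives were DESeq2 1.42.0, limma 3.58.1 (voom, and log2(TPM + 1) or log2(TPM + 0.1)), sva 3.50.0, and other scalings, filters and sets of lines.

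The members, the lists and their division were chosen with earlier results of these data known. By rule, values by line are given for the 8 members with the smallest p, for Top2a, Ccnb1, Mcm2, Ccne1 and Foxm1 as leading members of their roles, and for called genes of the other lists, which otherwise give 1 name each. Other genes with values were chosen after these were seen. Where lines share an animal, the spread among them understates that among tumours. The 2 groups' titles begin with different letters, and a difference in colony or handling cannot be told apart from genotype.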

Additional observations from a re-analysis of the deposited data

Results flagged for a closer look

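A single line far from the others of its group was looked for in 80 sets of values, those of the 34 members, Wee1, Cdkn1a and Cdc16 in CPM and of the scores, each in both groups, where chance marks about 1 set in 20. It was found in 1 set. Cdc16 was 63.6 CPM in WT replicate 5, while the other WT lines lay at 74.1 CPM or above, and without this line the adjusted p of Cdc16 was 0.0956. Knockout replicate 7, the lowest line for most members, did not stand apart by this measure.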

How the results depend on the processing

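No paired analysis was possible because the labels give no replicate numbers that the groups share. Across 26 alternatives no member was called but E2f1 and Pcna, 2 members lower, with limma on log2(TPM + 1) and on log2(TPM + 0.1). The sign of 19 members never turned, and it turned in at least 1 alternative for the other 15, most often for Aurkb and Ccne1. Scores kept knockout replicates 2 and 7 and WT replicate 5 as the 3 lowest lines under each of the 6 alternatives tried for them. With 1 line left out, the knockout minus WT difference went from -0.39 to -0.09 for the S-phase score and from -0.45 to -0.08 for the mitotic score, smallest without knockout replicate 7 and largest without WT replicate 5. In a shorter window of 150 bases, 100 before to 50 after the start, 0% of mitotic and 30.8% of S-phase promoters held an E2F match. A CHR match was in 78.6% of mitotic and 7.69% of S-phase promoters. Both a CHR and a CCAAT match were in 64.3% of mitotic promoters, beside 1.71% of promoters of tested genes.

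Over all genes, 1130 were higher and 977 lower with DESeq2, 286 and 998 on log2(TPM + 1) (22.3% of calls higher, against 50.9% in counts), 322 and 981 on log2(TPM + 0.1), 96 and 116 at a threshold of 0.01, and 878 higher with 1 surrogate variable. Without both WT replicate 5 and knockout replicate 7, chosen after seeing the data, they were 183 and 188, and 0 members were called. With 1 line left out, 324 to 649 genes were higher and 316 to 592 lower, with fewer by more than 1.5 times without knockout replicates 1 and 7, and for higher genes also without knockout replicate 3 or WT replicate 1. Calls went from 0 to 2 among CDK inhibitors, and from 0 to 1 among APC/C subunits, among RB, E2F and MuvB genes and among kinetochore genes. The cause of these changes was not tested. No member had fewer than 142 reads in a line, and the limits set by depth and by the number of lines were not compared.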
